A study of Mus musculus with 23 samples.

Results

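The genes described here encode the subunits of the proteasome, together with its activators and its assembly chaperones. A probe was taken where its symbol in the platform's probe-to-gene table starts with Psma, Psmb, Psmc, Psmd, Psme, Psmf or Psmg followed by a digit. The rule took 46 genes with 63 of the 24048 probes on the array, and it used no measured value. Of these, 61 probes for 44 genes belong to the proteasome. The other 2 probes were those of Psmc3ip and Psme3ip1, whose symbols start the same way but whose products are partners of proteasome proteins and not subunits. Psmd1, Psmf1, Psma8 and Psmg4 were not analysed here. One probe each was present for 28 genes, 15 genes had 2 probes, and Psmd10 had 3.

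Oil palm phenolics (OPP), a water-soluble extract from palm oil milling, were fed to male BALB/c mice to learn which genes respond to them in liver, spleen and heart. The mice were 12 weeks old according to the labels. Over 6 weeks the OPP group was given OPP (1500 ppm gallic acid equivalent) as its fluid, the control group distilled water, and both the same normal diet. Organs were taken after an overnight fast, and the groups hold 4 arrays each except for the 3 of the OPP livers. Mice were caged by group, so that the cage and OPP cannot be told apart, and the authors chose the RNA samples of highest integrity and left out arrays that clustered as outliers. No label ties the organs of 1 mouse together.

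The proteasome is the protease complex that degrades proteins tagged with ubiquitin. Its core particle is a barrel of stacked rings, with outer rings of alpha subunits, which guard the entrance, and inner rings of beta subunits, which cut. The constitutive catalytic subunits Psmb5, Psmb6 and Psmb7 are replaced by the inducible subunits Psmb8, Psmb9 and Psmb10 in the immunoproteasome, a form abundant in immune cells, induced elsewhere by interferon gamma, and known for making peptides for MHC class I. The regulatory particle that caps the core has a base, whose ATPases Psmc1 to Psmc6 unfold the substrate, and a lid, whose subunit Psmd14 removes the ubiquitin chain. Other caps are PA28 alpha and beta (Psme1 and Psme2), PA28 gamma of the nucleus (Psme3) and PA200 (Psme4).

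Promoter windows were available in RefSeq (GRCm38.p6) for 37 of the 44 genes, each running from 250 bases before the transcription start to 50 after it. The windows of 5 genes are printed because they show both full pairs of a constitutive and an inducible catalytic gene for which windows were held, and 1 gene of the interferon-inducible cap. They are Psmb5 (chr14:54617946-54618245, minus strand), its inducible counterpart Psmb8 (chr17:34197945-34198244, plus strand), Psmb6 (chr11:70525107-70525406, plus strand), its inducible counterpart Psmb9 (chr17:34187281-34187580, minus strand) and Psme1 (chr14:55578244-55578543, plus strand). Each is written 5′ to 3′ on the strand of the gene, and capitals mark matches, on either strand, to an interferon element (GAAANNGAA), the core of an antioxidant element (TGACNNNGC) or a GC box (GGGCGG).
Psmb5: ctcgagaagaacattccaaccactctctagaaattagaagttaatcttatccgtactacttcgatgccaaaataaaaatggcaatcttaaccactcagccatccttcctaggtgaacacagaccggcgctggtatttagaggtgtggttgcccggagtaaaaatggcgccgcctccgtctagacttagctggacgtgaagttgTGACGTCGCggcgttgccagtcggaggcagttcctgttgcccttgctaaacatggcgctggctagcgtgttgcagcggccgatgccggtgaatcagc
Psmb8: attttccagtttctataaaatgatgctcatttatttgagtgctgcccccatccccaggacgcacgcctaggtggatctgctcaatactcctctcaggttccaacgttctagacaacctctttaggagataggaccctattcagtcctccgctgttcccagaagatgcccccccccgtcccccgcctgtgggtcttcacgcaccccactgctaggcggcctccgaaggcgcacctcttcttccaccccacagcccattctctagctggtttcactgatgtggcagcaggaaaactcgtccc
Psmb6: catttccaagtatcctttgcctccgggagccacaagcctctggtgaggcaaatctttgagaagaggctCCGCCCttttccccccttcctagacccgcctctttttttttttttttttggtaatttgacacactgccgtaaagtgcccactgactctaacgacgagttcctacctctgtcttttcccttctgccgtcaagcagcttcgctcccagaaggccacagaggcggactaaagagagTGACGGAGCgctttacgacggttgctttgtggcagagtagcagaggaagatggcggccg
Psmb9: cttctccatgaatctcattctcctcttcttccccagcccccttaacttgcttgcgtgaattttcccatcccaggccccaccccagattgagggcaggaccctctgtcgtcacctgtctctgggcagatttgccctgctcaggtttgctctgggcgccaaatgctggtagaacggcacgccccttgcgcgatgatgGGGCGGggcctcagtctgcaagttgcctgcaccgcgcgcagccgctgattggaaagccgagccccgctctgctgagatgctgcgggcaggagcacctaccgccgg
Psme1: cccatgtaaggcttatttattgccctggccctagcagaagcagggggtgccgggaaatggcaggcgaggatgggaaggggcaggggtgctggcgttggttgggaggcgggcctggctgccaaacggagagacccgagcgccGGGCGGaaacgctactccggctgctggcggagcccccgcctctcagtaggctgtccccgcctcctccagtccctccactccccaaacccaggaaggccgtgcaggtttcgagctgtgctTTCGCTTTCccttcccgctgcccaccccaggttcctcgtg
The antioxidant letters stood in the windows of both constitutive genes and the interferon letters in that of Psme1, while Psmb8 held none of the 3 motifs and Psmb9 only a GC box. The Psmb9 window ran head to head with that of Tap1, the peptide transporter gene of the class I pathway, with 275 bases shared. The 37 genes had 40 windows, and a gene was counted where any of its windows matched. Its share is therefore by gene, while the share set beside it is by window. Over the 37 genes, the interferon letters were found for 6 (16.2%, against 8.56% of all 32851 windows), among them Psmb3, Psmb4 and Psmc2. The antioxidant letters were found for 6 genes as well (16.2%, against 12.4% of all windows), which were Psmb5, Psmb6, Psmc6, Psmd12, Psmd9 and Psme4. A GC box was found for 21 genes (56.8%, against 35.7% of all windows). The 3 motifs did not overlap in the printed windows, and a match of letters is a description only.

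Of the 61 proteasome probes, the liver allowed a test of 39, the spleen of 49 and the heart of 50, which cover 33, 40 and 40 genes. Testing required a detection p, the chance that a negative control is as bright, under 0.01 for 3 or more arrays in 1 of the groups compared. In all, 8 probes were tested in no organ, which left Psma6 and the thymus subunit Psmb11 with no probe that could be tested. Levels are log2 intensities after background removal, either normalised among the arrays of 1 organ, which serves the comparisons of OPP with control, or among all 23 arrays, which serves the comparisons between organs. A level of 1 probe is never set against that of another.
Between 5349 and 7664 probes were detected on the liver arrays, against 8318 to 8957 on spleen and 9022 to 9785 on heart arrays, and 66 probes had a value on liver arrays but not on the others. Whether the organs were processed apart is not given in the sources used here, and organ and any such run cannot be told apart. The organs carried their own markers. Hepatocyte genes summed to between 53506 and 60865 intensity units in control livers, 124 to 287 in control spleens and 377 to 694 in control hearts. Heart muscle genes summed to between 138160 and 141658 in control hearts, against at most 204 in control livers and spleens. The 4 B cell probes were detected on all spleens and on no liver. Control livers 3 and 4 stood apart in genes of neutrophils and their precursors, with sums of 76305 and 40942 against 2665 and 1459 in control livers 1 and 2, and liver counts are given with and without them, as are single values that moved across a threshold. The spleens also carried exocrine pancreas genes, at 50804 to 87579 in controls against at most 1381 in control livers. In these whole organs, fewer cells of a type and less RNA per cell cannot be told apart. The number of arrays limits the precision, and the p-values measure only the spread between these arrays.

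Control heart and control spleen differed in opposite directions at the constitutive and the inducible catalytic subunits. All 4 probes of the constitutive catalytic genes were higher in the heart, with a median log2 difference of 1.07, and 3 of the 4 tested probes of the inducible genes were lower, with a median of -1.14. Over the whole complex, 21 of 50 tested probes were higher in the heart and 13 lower at an adjusted p under 0.05 by limma. The background was high, since 41.4% of all 10289 probes tested between these organs were higher and 40.1% lower. The median over the proteasome probes was 0.17, against 0.03 over all probes. The balance depended on the scaling. The authors' values gave 23 higher and 13 lower, where 38.4% of all probes were higher and 42.1% lower. The proteasome median was then 0.26 against -0.08 over all probes. Median scaling gave 26 higher and 9 lower, where 41.5% of all probes were higher and 36.5% lower, with medians of 0.42 against 0.10. The proteasome median lay above that of all probes under each of these scalings.

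**Figure D1:**
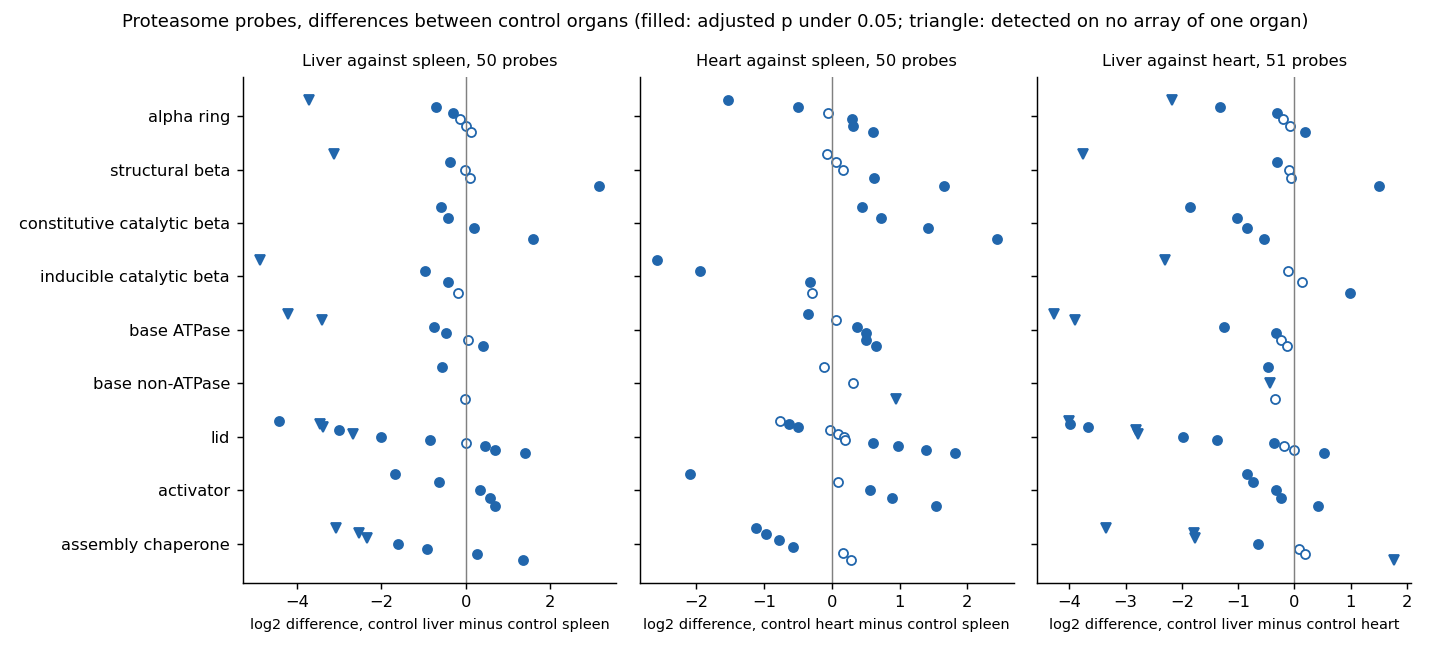
Log2 difference between control organs (x axis, log2 units) for each tested proteasome probe, by subunit group (rows), in 1 panel per pair of organs. Filled symbols passed an adjusted p of 0.05, and triangles were detected on no array of 1 organ. The constitutive catalytic probes lie to the right of 0 in the heart against spleen panel (0.44 to 2.43) and the inducible ones to the left (-2.58 to -0.30).

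Psmb9, the inducible counterpart of Psmb6, had the largest difference between heart and spleen of the 50 probes tested there. On the scale of all arrays its levels were 9.92, 10.06, 9.53 and 9.79 in control spleens, 7.21, 7.73, 7.20 and 6.84 in control hearts, and 5.04, 4.95, 4.68 and 5.10 in control livers. The 3 organs did not overlap. Heart against spleen gave a log2 difference of -2.58 (SE 0.18, n = 4 and 4, adjusted p = 3.00e-08 by limma), a 5.99-fold lower level. The probe was detected on none of the livers, so that the liver level was at least 8.26-fold lower than that of the spleen and at least 1.38-fold lower than that of the heart. The bounds set the bright organ against the dimmest signal still above background on each array of the dim one. The OPP arrays repeated the order, with 9.66 to 9.85 in spleens, 6.98 to 7.39 in hearts and 4.75 to 4.89 in livers.
Psmb8, the inducible counterpart of Psmb5, followed another order. Its levels were 7.87, 8.32, 7.64 and 8.36 in control spleens, 7.14, 6.48, 7.37 and 7.35 in control livers, and 6.13, 6.28, 6.07 and 5.92 in control hearts. The heart was lower than the spleen by a log2 difference of -1.95 (SE 0.21, adjusted p = 2.13e-06 by limma), and the liver, where 3 of 4 controls detected the probe, stood between them. The liver was lower than the spleen (-0.96, SE 0.21, adjusted p = 9.67e-04) and higher than the heart (0.99, SE 0.21, adjusted p = 7.19e-04 by limma), but the latter difference was 0.25 with an adjusted p = 0.292 under median scaling. Without control livers 3 and 4 it was 0.73 (adjusted p = 0.0113 by limma), and between OPP livers and OPP hearts it was 0.65 (adjusted p = 0.0570 by limma).
Psmb10, the inducible counterpart of Psmb7, varied least of the inducible subunits. Heart against spleen gave -0.32 at its probe scl34384.4.1_27-S (SE 0.12, adjusted p = 0.0288) and -0.30 at scl0019171.2_204-S (SE 0.17, adjusted p = 0.126 by limma), and the arrays of these organs overlapped at both. Liver against spleen gave -0.18 and -0.41 at these probes, and liver against heart 0.14 and -0.12. The call at the second probe against the spleen (adjusted p = 0.0398) was lost without control livers 3 and 4 (-0.37, adjusted p = 0.131 by limma).

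The constitutive partners ran the other way between heart and spleen. Psmb5, which carries the chymotrypsin-like activity, stood at 10.72, 10.44, 10.69 and 10.70 in control hearts, 8.69, 9.33, 9.69 and 9.16 in control spleens, and 8.57, 8.70, 8.83 and 9.04 in control livers. Every heart lay above every spleen and liver, with a log2 difference of 1.42 from the spleen (SE 0.18, adjusted p = 7.96e-06) and of -1.85 for liver against heart (SE 0.18, adjusted p = 4.19e-07 by limma). Spleen and liver overlapped, although the liver was lower by the test (-0.43, SE 0.18, adjusted p = 0.0385 by limma).
Psmb6, which carries the caspase-like activity, stood at 11.97, 11.92, 11.90 and 11.99 in control hearts, 11.33, 11.12, 11.13 and 11.28 in control spleens, and 11.27, 11.44, 11.42 and 11.46 in control livers. The heart was again the highest organ, 1.66-fold above the spleen (log2 difference 0.73, SE 0.08, adjusted p = 1.43e-06 by limma). Psmb7, which carries the trypsin-like activity, was higher in heart than in spleen at both probes, but by 2.43 at scl19361.2.11_20-S, where the organs did not overlap, and by 0.44 at scl0003171.1_33-S, where they did. Between liver and spleen these probes had opposite signs, 1.59 and -0.58, and both passed the adjusted threshold.
The difference between an inducible subunit and its constitutive partner was followed array by array, relative to the mean of the control hearts. For Psmb8 over Psmb5 it was 3.37 ± 0.60 in control spleens and 2.84 ± 0.37 in control livers (SD, n = 4), on the log2 scale. For Psmb9 over Psmb6 it was 3.31 ± 0.23 in control spleens, and no value is given for the liver, where Psmb9 was not above background. For Psmb10 over Psmb7 it depended on the Psmb7 probe. With scl0003171.1_33-S and Psmb10 probe scl0019171.2_204-S it was 0.74 ± 0.49 in control spleens and 0.91 ± 0.16 in control livers, and with Psmb7 probe scl19361.2.11_20-S it was 2.73 ± 0.67 and 0.72 ± 0.26.

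**Figure D2:**
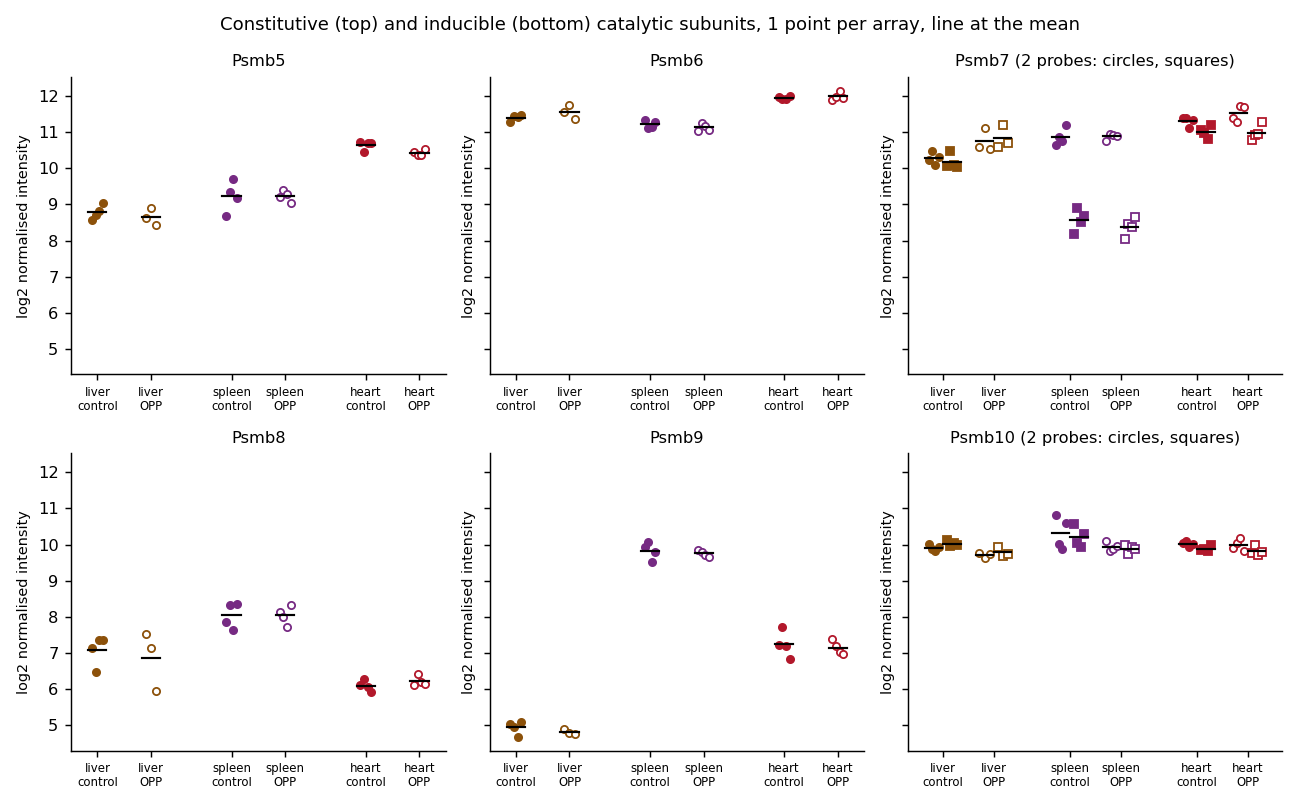
Log2 normalised intensity on the scale of all arrays (y axis) of the constitutive catalytic subunits (top row) and their inducible counterparts (bottom row), 1 point per array by organ and treatment, with lines at the means (squares: the second probe of Psmb7 and Psmb10). Psmb5 and Psmb6 sit highest in hearts, Psmb8 and Psmb9 in spleens, and Psmb9 lies between 4.68 and 5.10 in livers, where no array detected it.

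Markers of leukocytes were highest in the spleen, as were Psmb8 and Psmb9. The 8 probes of 5 genes common to leukocytes summed to between 22312 and 29189 in control spleens, 1823 and 4771 in control hearts, and 1311 and 5344 in control livers, and all 7 of them tested between heart and spleen were lower in the heart. Between liver and heart 3 were tested, of which 0 were higher and 1 lower in the liver, with a median of 0.05. The part of leukocytes in the difference of Psmb8 and Psmb9 was not tested. Control heart 2 held both the highest leukocyte sum of its group and a T cell sum of 1571, against 130 to 143 in the other control hearts, and it had the highest Psmb9 level of the control hearts as well. Without it the log2 difference of Psmb9 was -2.75 and that of Psmb8 was -2.01.
Genes of class I antigen processing, which use the peptides of the proteasome, were lower in heart than in spleen for 5 of 6 tested probes and higher for 1. They included the class I light chain B2m (-1.66, SE 0.12), the interferon-induced transcription factor Irf1 (-1.59, SE 0.15) and the transporter Tap1, whose probe was detected on all control spleens but on no control heart or liver. Liver against spleen gave 2 higher and 3 lower of 6. B2m was higher in the liver (0.62, SE 0.12) while Irf1 was lower (-0.93, SE 0.15), both detected on all control livers and spleens. In all, 7 of the 8 genes listed were named on the array.

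The other parts of the complex did not follow 1 direction between heart and spleen. Of the base ATPases, 4 of 6 probes were higher in the heart and 1 lower, and of the alpha ring 3 of 6 were higher and 2 lower. The lid had 4 higher and 2 lower of 11, the structural beta subunits 2 higher of 5 and the base subunits without ATPase activity 1 higher of 3. The chaperones that assemble the core and the base were the other group with no higher call, with 4 of 6 probes lower and a median of -0.68. Psmg3, a chaperone of the alpha ring, stood at 6.97, 6.78, 6.67 and 6.81 in control hearts against 7.86, 7.83, 8.19 and 7.81 in control spleens (-1.11, SE 0.14, adjusted p = 7.67e-06 by limma).
The alternative caps split most widely. Psme3 stood at 10.67, 10.81, 11.30 and 10.72 in control spleens, 8.75, 8.87, 8.76 and 8.74 in control hearts, and 9.19, 9.26, 9.16 and 9.21 in control livers. It was 4.28-fold lower in heart than in spleen (log2 difference -2.10, SE 0.12, adjusted p = 4.35e-09 by limma), and no organs overlapped. Psme4 took the opposite order, with 10.11, 9.88, 9.94 and 9.84 in control hearts, 9.17, 9.19, 9.04 and 9.03 in control livers and 8.40, 8.56, 8.30 and 8.38 in control spleens (heart against spleen 1.54, SE 0.09, adjusted p = 5.51e-09 by limma). PA200 encoded by this gene is best known from testis and from DNA repair.
Psme2 was higher in heart than in spleen (0.88, SE 0.14), as was Psme1 at scl0019186.1_187-S (0.56, SE 0.09) but not at its second probe (0.09, SE 0.12). PA28 alpha and beta are interferon-inducible like Psmb8 and Psmb9, and their probes did not share the direction of those genes. Between liver and spleen Psme2 gave 0.56 (SE 0.14) and the Psme1 probes 0.32 (SE 0.09) and -0.64 (SE 0.12), all past the threshold, but median scaling turned the first 2 of these to -0.17 and -0.08. Between liver and heart Psme2 gave -0.32 and Psme1 -0.24 and -0.73, and without control livers 3 and 4 the first 2 of these were -0.16 and -0.20 and no longer passed (adjusted p = 0.325 and 0.142 by limma). Psma5, of the alpha ring, was lower in the heart, at 7.14, 7.16, 7.23 and 7.31 against 8.75, 9.01, 8.71 and 8.54 in control spleens (-1.54, SE 0.16, adjusted p = 1.46e-06 by limma).
Psmb1, a structural beta subunit, was higher in the heart by 1.66 (SE 0.18), and its levels were 10.74, 10.89, 10.89 and 10.66 in control livers, 9.41, 9.56, 8.71 and 9.50 in control hearts, and 7.76, 7.29, 7.77 and 7.72 in control spleens. Nfe2l1, the transcription factor that raises proteasome genes when proteasomes are inhibited, was higher in heart than in spleen by 2.27 (SE 0.12) and in liver than in spleen by 0.67 (SE 0.12). Over the 18 probes of partners and the regulator, from 11 of 13 genes listed, 10 were tested here, of which 4 were higher and 3 lower. Of the genes of ubiquitin supply and unfolding, 2 of 8 were named on the array, and 1 of their 2 probes was higher, that of Nploc4 (0.27, SE 0.11). Psmc3ip and Psme3ip1, which are not subunits, were lower in the heart (-1.12 and -0.76).

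More proteasome probes were lower than higher in the liver, against both other organs. Against the spleen, 29 of 50 tested probes were lower and 12 higher at an adjusted p under 0.05 by limma, where 47.6% of all probes were lower and 38.5% higher, with a median of -0.45 against -0.23 over all probes. Against the heart, 32 of 51 were lower and 6 higher, where 47.8% of all probes were lower and 34.8% higher, with a median of -0.42 against -0.28. Of the 29 lower than in the spleen, 14 were detected on every control liver, 4 on some and 11 on none, and of the 32 lower than in the heart 18, 2 and 12. Without control livers 3 and 4 the counts were 28 lower and 11 higher against the spleen and 29 and 6 against the heart. These counts moved with the scaling. Against the spleen the authors' values gave 22 lower and 19 higher, where 48.1% of all probes were lower and 37.2% higher. The proteasome median was then -0.15 against -0.31 over all probes. Median scaling gave 31 lower and 5 higher, where 57.8% of all probes were lower and 26.2% higher, with medians of -0.69 against -0.79. Under both, the proteasome median lay above that of all probes, whereas with quantile normalisation it lay below. Against the heart the authors' values gave 25 lower and 7 higher, where 45.1% of all probes were lower and 35.7% higher. The proteasome median was then -0.233 against -0.227 over all probes. Median scaling gave 45 lower and 2 higher, where 61.7% of all probes were lower and 21.5% higher, with medians of -0.90 against -0.86. Under both, the proteasome median was near that of all probes.
Of the 49 proteasome probes detected on all 8 control spleens and hearts, 11 were detected on no control liver (22.4%), against 19.02% of all 6535 such probes, so that the share is near the background. They were the probes of Psma5, Psmb9, Psmc2, Psmc6, Psmd11, Psmg2, both probes of Psmd6 and 1 probe each of Psmb2, Psmd9 and Psmd10. In 10 of the 11 cases no OPP liver detected the probe either.
The lid had 7 of 11 probes lower and 3 higher against the spleen (median -2.02) and 8 lower and 1 higher against the heart (median -1.98). With the 3 lid probes detected on no control liver set at their bounds, these medians were -1.31 and -1.38. Psmd14, the deubiquitinase of the lid, stood at 6.76, 7.57, 5.42 and 7.72 in control livers, of which 2 detected it, 10.42, 10.58, 10.50 and 10.64 in control hearts, and 11.27, 11.23, 11.30 and 11.40 in control spleens. The spread of the livers was wide, yet none came near the other organs (liver against spleen -4.43, SE 0.38, adjusted p = 1.37e-07 by limma, and -4.10 without control livers 3 and 4). With detection on only 2 of 4 livers the size is uncertain. Psmd12 was alike, at 5.91, 6.96, 5.07 and 6.64 in control livers, detected on 1, against 10.05, 10.21, 10.25 and 10.05 in control hearts (-3.99, SE 0.31, and -3.69 without control livers 3 and 4).
The ATPases Psmc2 and Psmc6 were detected on no liver. Psmc2 stood between 8.88 and 9.08 in control spleens and between 8.94 and 9.14 in control hearts, at least 4.64-fold and 4.82-fold above the livers. Psmc6 was at least 2.57-fold and 3.63-fold higher in these organs than in the liver. At other genes the bounds against the spleen were 3.92-fold for Psma5, 3.41-fold for Psmd11, 2.78-fold for Psmg2 and 3.13-fold and 2.48-fold for the probes of Psmd6.
Other subunits were as high or higher in the liver. Psmb1 stood 3.16 above the spleen (SE 0.18, adjusted p = 2.49e-09) and was 2.83-fold above the heart (SE 0.18 on the log2 scale, adjusted p = 3.15e-06 by limma). Psmd5, a chaperone of the base, stood at 7.21, 7.42, 7.35 and 7.21 in control livers and was detected on no control heart, at least 2.91-fold higher in the liver. Psmd3 of the lid was higher than in the spleen (0.70, SE 0.11) and the heart (0.53, SE 0.11), although under median scaling the latter was 0.11 (adjusted p = 0.502 by limma), and Psme4 was higher than in the spleen (0.70, SE 0.09). Psme3 was lower than in the spleen (-1.68, SE 0.12) and higher than in the heart (0.42, SE 0.12), a sign that median scaling turned (-0.18).
The OPP arrays, which are other mice, repeated the organ differences of the controls. Over the proteasome probes the correlation of the log2 differences was 0.988 for liver against spleen, 0.989 for heart against spleen and 0.986 for liver against heart (50, 50 and 51 probes), against 0.986, 0.992 and 0.987 over all probes. The probes share the arrays of each comparison, and the values are given as a description.

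Probes of 1 gene often disagreed between organs. Of the genes with over 1 probe tested, 6 of 9 had opposite signs for liver against spleen, 1 of 10 for heart against spleen and 2 of 10 for liver against heart. The probes of Psmb2, a structural beta subunit, differed in detection. Its probe scl0002609.1_52-S was detected on no liver, at least 2.18-fold below the spleen, while scl24957.6.1_12-S stood at 10.83, 10.92, 10.88 and 10.75 in control livers and 10.57, 10.66, 10.76 and 10.99 in control spleens, which overlapped. Psmd13 of the lid gave 1.39 at scl00071.1_7-S and -0.86 at scl31901.9_22-S for liver against spleen, and 1.39 and -0.51 for heart against spleen, all past the adjusted threshold. A statement on such a gene therefore holds for the probe that is named. Which transcripts each probe measures was not tested.

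**Figure D3:**
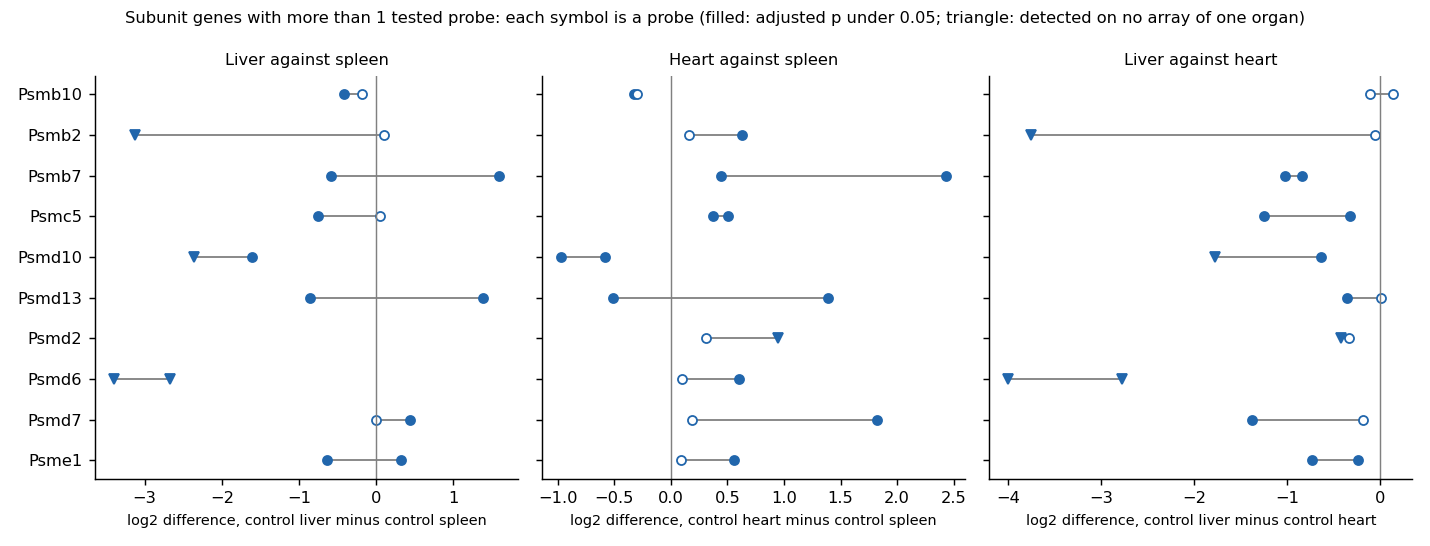
Log2 difference between control organs (x axis, log2 units) at each tested probe of the genes with more than 1 probe (rows), joined by a line for each gene, 1 panel per pair of organs, with filled points past an adjusted p of 0.05. Triangles mark probes detected on no array of 1 organ, whose position is no measured size. Psmd13 and Psmb7 span 2.25 and 2.18 log2 units for liver against spleen, while the probes of Psmb10 differ by 0.0235 for heart against spleen.

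OPP and control differed at few proteasome probes. At an adjusted p under 0.05, limma called 0 of the proteasome probes in each organ, as it called 0 of all probes, and 7 of 39 liver, 4 of 49 spleen and 12 of 50 heart probes had an unadjusted p under 0.05, against 719 of 6434, 593 of 8582 and 1290 of 9172 over all probes. At the threshold of the study, an unadjusted p under 0.01, the liver had 3 higher and 0 lower calls, the spleen 0, and the heart 1 higher and 4 lower. Over all probes, 2.13% were higher and 0.793% lower among livers, 1.17% and 0.524% among spleens, and 1.91% and 2.70% among hearts. The inducible catalytic subunits gave 0 calls in any organ, and their log2 changes lay between -0.34 and 0.14.

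**Figure D4:**
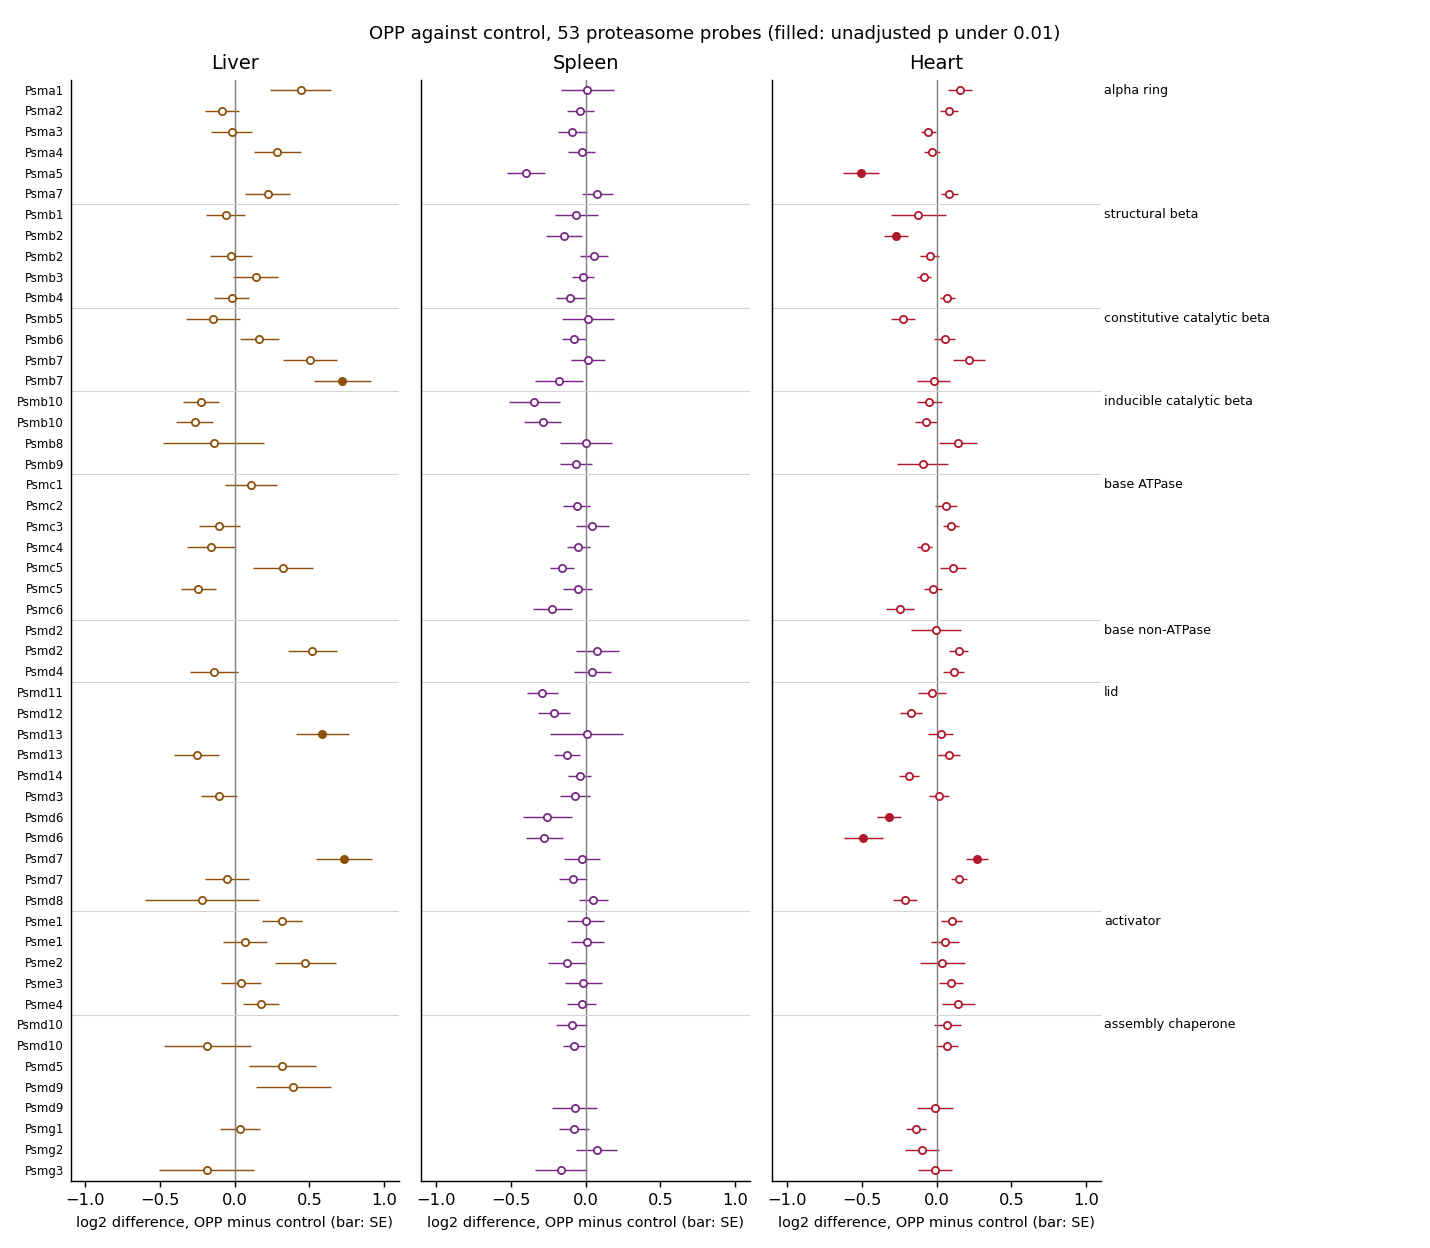
Log2 change with OPP (x axis, log2 units) of each tested proteasome probe by gene and subunit group (rows), 1 panel per organ, with bars for the SE. Filled points have an unadjusted p under 0.01 by limma, which 3 liver, 0 spleen and 5 heart probes have.

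In the OPP livers 3 probes rose at the unadjusted threshold, of Psmd7, Psmb7 and Psmd13. The median over the 39 probes was 0.04, against -0.03 over all probes, with 20 changes above 0 (45.4% of all probes). On the scale of the liver arrays, Psmd7 at scl000612.1_15-S stood at 8.76, 9.20, 8.99 and 8.76 in control livers and 9.49, 10.03 and 9.46 in OPP livers. The groups did not overlap, with a log2 change of 0.73 (SE 0.19, adjusted p = 0.291 by limma). The two-sided exact permutation p was 0.0286, the smallest that 3 against 4 arrays allow. At its other probe this lid subunit, which pairs with Psmd14, gave -0.05 (SE 0.15).
Psmb7 stood at 10.28, 10.75, 10.31 and 10.24 in control livers and 10.87, 11.50 and 10.98 in OPP livers at scl19361.2.11_20-S. Again the groups did not overlap, with a log2 change of 0.72 (SE 0.19, adjusted p = 0.294 by limma, exact permutation p = 0.0571). Its other probe lay in the same direction (0.51, SE 0.18, adjusted p = 0.390 by limma, exact permutation p = 0.0286), with 10.47, 10.73, 10.31 and 10.57 against 10.86, 11.42 and 10.80.
Psmd13 stood at 8.96, 9.15, 9.34 and 8.78 against 9.57, 9.91 and 9.45 at scl00071.1_7-S, a log2 change of 0.59 (SE 0.18, adjusted p = 0.327 by limma, exact permutation p = 0.0571), while its other probe gave -0.25 (SE 0.15). The base scaffold Psmd2 gave 0.52 (SE 0.16, adjusted p = 0.359 by limma), with 9.01 to 9.63 in control livers and every OPP liver at 9.81 or above, so that the groups did not overlap. The 5 activator probes had changes between 0.04 and 0.47, all above 0, none under the threshold, and the 3 inducible catalytic probes tested had changes between -0.27 and -0.14. Psmb5 gave -0.15 (SE 0.18) and Psmb6 0.17 (SE 0.13), and 1 probe of the ATPase Psmc5 gave -0.24 (SE 0.12).
The liver calls were lost when some single arrays were left out, which also lowers the precision. OPP liver 2 had the highest level of all 7 livers at each of these 3 probes and a neutrophil sum of 22501, against 6590 and 1146 in the other OPP livers, and without it, without control liver 1 or without control liver 4, 0 probes passed. Without control livers 3 and 4, those high in neutrophil genes, 0 passed as well, with changes of 0.68 for Psmd7, 0.60 for Psmb7 and 0.58 for Psmd13. OPP liver 3 stood apart in background, with the dimmest 5% of its probes under 290.1 intensity units against 124 to 143 on the other livers, and with the fewest probes detected (5349). Without it the count was 3. The part of neutrophil genes and of background in the liver changes was not tested.

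In the OPP spleens 0 of 49 probes passed the unadjusted threshold. Of the changes, 36 lay below 0 and 13 above, where 49.3% of all probes lay above 0. The median was -0.06 against -0.00218 over all probes. Under median scaling the median was 2.74e-04, with 24 below 0, against a median of 0.06 over all probes. The smallest p belonged to Psma5, at 8.89, 9.14, 8.85 and 8.70 in control spleens and 8.45, 8.63, 8.67 and 8.22 in OPP spleens (-0.40, SE 0.13, adjusted p = 0.589 by limma). The groups did not overlap, and the exact permutation p was 0.0286, the smallest that 4 against 4 arrays allow. Psmd11 of the lid followed with 8.84, 8.63, 8.51 and 8.83 against 8.35, 8.45, 8.53 and 8.33, which overlapped (-0.29, SE 0.10, adjusted p = 0.627 by limma). Both Psmb10 probes gave values of -0.29 and -0.34 (SE 0.12 and 0.17), with control spleens 1 and 4 above the others. Psmb8 gave 0.00 (SE 0.17), Psmb9 -0.06 (SE 0.11), Psmb5 0.02 (SE 0.17) and Psmb6 -0.08 (SE 0.08). The higher probes of smallest p were those of Psmd2, Psma7, Psmd8 and Psmb2, none above 0.08. The methods' t-test, which the study names for its measurements other than arrays, gave 0 calls as well. Without control spleen 3 there were 2 calls, Psmd11 with a change of -0.35 and Psmb10 with -0.37.
Of the markers of blood cells, 3 of 4 platelet probes and 1 of 10 probes of neutrophils and their precursors were higher in OPP spleens at an unadjusted p under 0.01, and 0 of the erythroid, B cell, T cell and leukocyte probes tested were called. The platelet probes summed to 2202 to 6016 in control and 5850 to 7454 in OPP spleens, and the neutrophil probes to 37067 to 113637 and 97965 to 157437, with overlap in both. Their part in the proteasome values was not tested. The 7 leukocyte probes tested had a median change of 0.07.

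In the OPP hearts 4 probes fell and 1 rose at the unadjusted threshold, with a median over the 50 probes of -0.00845 against 0.00355 over all probes. Psma5 had the smallest p, at 6.95, 6.96, 7.03 and 7.11 in control hearts and 6.77, 6.48, 6.23 and 6.54 in OPP hearts. Every OPP heart lay below every control, with a log2 change of -0.51 (SE 0.12, adjusted p = 0.137 by limma, exact permutation p = 0.0286). Psma5 builds the alpha ring, and its call passed in all 18 alternative settings. The unadjusted p lay between 0.000273 and 0.00518 by limma or, in the setting that used it, by the methods' t-test.
Both probes of the lid subunit Psmd6 fell. At scl000397.1_19-S the levels were 8.71, 8.77, 8.95 and 8.82 against 8.61, 8.41, 8.56 and 8.39, without overlap (-0.32, SE 0.08, adjusted p = 0.152 by limma). At scl45887.9.1_15-S they were 7.83, 7.92, 8.19 and 8.05 against 7.86, 7.28, 7.50 and 7.40, where OPP heart 1 lay within the controls (-0.49, SE 0.13, adjusted p = 0.153 by limma).
Psmb2 fell at scl0002609.1_52-S, with 8.39, 8.20, 8.35 and 8.41 against 7.95, 8.14, 8.03 and 8.14 (-0.27, SE 0.08, adjusted p = 0.188 by limma). The groups did not overlap there, but the other probe gave -0.05 (SE 0.06). Psmd7 rose at scl000612.1_15-S, with 9.94, 9.98, 10.07 and 9.95 against 10.19, 10.17, 10.21 and 10.45 (0.27, SE 0.07, adjusted p = 0.174 by limma). The second Psmd7 probe lay the same way without overlap (0.15, SE 0.05, adjusted p = 0.257 by limma), at 10.76, 10.70, 10.72 and 10.68 against 10.88, 10.82, 10.93 and 10.83.
Further probes under an unadjusted p of 0.05 were mostly below 0, those of Psmc6 (-0.24), Psmb5 (-0.23), Psmd8 (-0.21), Psmd14 (-0.19) and Psmd12 (-0.17), while a probe of Psmd2 lay above 0 (0.15). The 5 activator probes gave values between 0.04 and 0.14, Psmb8 gave 0.14 (SE 0.13) and Psmb9 -0.09 (SE 0.17).

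**Figure D5:**
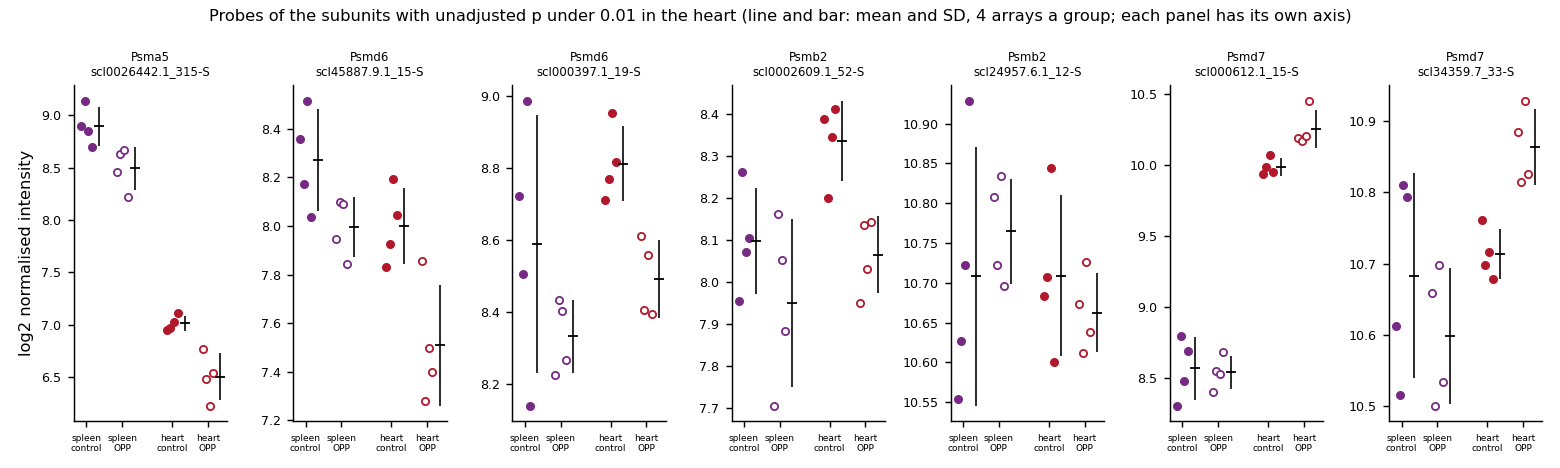
Log2 level on the scale of each organ's own arrays (y axis, a separate axis per panel) of every probe of Psma5, Psmd6, Psmb2 and Psmd7, 1 point per array in control and OPP spleens and hearts, with lines and bars for the mean and SD (4 arrays a group). Control and OPP hearts do not overlap at Psma5, at both Psmd7 probes, at Psmd6 probe scl000397.1_19-S and at Psmb2 probe scl0002609.1_52-S, while at Psmd6 probe scl45887.9.1_15-S OPP heart 1 (7.86) lies among the controls.

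Background was lower on OPP hearts than on control hearts. The dimmest 5% of probes lay under 47.8 to 51.2 intensity units on control hearts and under 40.9 to 45.3 on OPP hearts. Among spleens the limits were 63.5 to 70.2 on control and 53.3 to 65.3 on OPP arrays, with overlap. The part of background in the changes of either organ was not tested. With median scaling, which shifted the median of all heart probes to -0.12, 13 proteasome probes were lower and 0 higher, where 11.3% of all probes were lower, and the change of Psmd7 was 0.12 and no longer passed. Without control heart 3 or control heart 4 the count of calls was 3, and Psmb2 and Psmd7 were both lost without control heart 4 and without control heart 1.

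The responses of the organs were compared in 1 fit of all 23 arrays. Between liver and spleen 2 of 36 probes differed at an unadjusted p under 0.01, where 5.88% of all probes did. They were Psmd7 at scl000612.1_15-S (difference 0.69, SE 0.18, adjusted p = 0.101) and Psmb7 at scl19361.2.11_20-S (0.85, SE 0.24, adjusted p = 0.106 by limma). At an adjusted p under 0.05 there were 0 (0.133% of all probes), with a smallest adjusted p of 0.101. Between liver and heart 0 of 36 differed at the unadjusted threshold, where 4.24% of all probes did. At an adjusted p under 0.05 the share of all probes was 0.0716%. Under an unadjusted p of 0.05 there were 3, against 738 of 5584 over all probes. Psmb7 came first (0.68, SE 0.24, adjusted p = 0.236 by limma). Between spleen and heart 0 of 49 differed, also at an unadjusted p under 0.05, where 0.721% of all probes passed 0.01 and 199 of 7209 passed 0.05.
Across the 49 probes tested in both, the changes of heart and spleen had a correlation of 0.54 (0.24 over all probes). The sign was the same for 30, as it was for 57.0% of all probes. For heart and liver it was 0.45 over 36 probes (0.08 over all). Probes of 1 organ share its arrays, and these values are a description of the probes. Psma5 was the gene with the smallest p among the lower probes of both spleen and heart, with changes of -0.40 and -0.51, and in the liver it was not detected.
The list of partners and the regulator gave 0 calls with OPP in each organ, with 8 probes tested in the liver and 10 in spleen and heart. Class I antigen processing gave 0 calls as well, with 4 probes tested in the liver and 5 in spleen and heart, and so did the 2 probes of ubiquitin supply.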

How the data were processed

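Organ RNA was amplified and hybridised to Illumina MouseRef-8 bead arrays, 1 RNA sample per array, and scanned intensities were exported with BeadStudio, for which the submitters' notes name release 1.5.1.3. The authors deposited a mean bead intensity per probe and array without normalisation, and a detection p-value beside it. They also deposited rank-invariant normalised intensities. These served as an alternative, for which values under 10 were here set to 10. In all, 66 probes of the liver arrays had no value on spleen and heart arrays, Psmc1's among them. A slide or scan date is not given in the sources used here.

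Probes were named from the platform's probe-to-gene table, in which 19398 of 24048 had 1 symbol. Intensities were corrected with the normexp model of limma (version 3.58.1 in R 4.3.3; offset 16), quantile normalised and taken to log2, within each organ for OPP and over all 23 arrays between organs. Probes with a detection p under 0.01 on 3 or more arrays of either group were tested with lmFit and eBayes with an intensity trend, and p-values were adjusted over all tested probes by the Benjamini-Hochberg method. The steps were tested on simulated data. The correlation within an organ was at least 0.954, and 0 pairs of arrays were identical. The replicate numbers gave no steady pairing of the arrays: over 23 pairs of the same number the deviations correlated between -0.298 and 0.535, with 6 over 0.1. The largest, 0.535 and 0.472, were between control and OPP hearts of replicates 4 and 2. Whether arrays of the same number shared a run was not tested. Organ contrasts used control arrays, and differences in response used all arrays.

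The proteasome members and the lists of partners, ubiquitin supply, class I genes and cell markers were chosen with earlier results of these data known. Genes were named by a rule: the catalytic pairs with Psme1 and Psme2, the probes of smallest p in each direction with OPP, the largest past the threshold in each organ contrast, those of smallest p in each difference in response, and genes whose probes disagreed. Alternatives were the authors' values, other scalings, no background correction, other filters, the methods' t-test (which the study names for measurements other than the arrays, whose calls rested on the Illumina error model), array weights, 1 fit of all arrays, the replicate block, the OPP arrays for organ contrasts, and leaving out arrays. No value from the authors' own comparisons was used.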

Additional observations from a re-analysis of the deposited data

Results flagged for a closer look

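Within groups of 4 arrays, 12 of 166 sets of a probe and a group, over 36 probes, held 1 array farther from the rest than Dixon's 95% limit, where chance flags about 1 in 20. Levels are on the log2 scale of the organ's own arrays. Among the called probes, Psmd7 (scl000612.1_15-S) stood at 10.45 in OPP heart 4 against 10.17 to 10.21 in the other OPP hearts, and Psmb7 (scl19361.2.11_20-S) at 10.75 in control liver 2 against 10.24 to 10.31. Of the constitutive catalytic subunits, Psmb5 stood at 10.2 in control heart 2, the heart with the highest leukocyte sum of its group, against 10.49 to 10.51. Psme3 stood at 8.66 in the same heart against 8.54 to 8.56. Psme1 (scl019186.11_4-S) stood at 11.17 in control liver 4 against 10.94 to 10.97. Psmd2 stood at 9.4 in OPP heart 1 against 9.54 to 9.55. In control spleen 3, Psmc5 (scl40797.10.1_7-S) stood at 11.03 against 10.69 in each of the others, and Psmg3 at 8.37 against 8.01 to 8.06. In OPP spleen 4, Psmg3 stood at 7.39 against 8.09 to 8.16, and Psmd8 at 9.5 against 9.78 to 9.82. Psmb1 was set apart in 2 groups, at 7.5 in control spleen 2 against 7.92 to 7.98 and at 8.51 in control heart 3 against 9.18 to 9.32. The causes were not tested.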

How the results depend on the processing

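The counts of organ differences at an adjusted p under 0.05 stayed within 1.5 times of 41 (liver against spleen), 34 (heart against spleen) and 38 (liver against heart) in every alternative run. With the replicate block they were 39, 34 and 35, and with 1 array left out 37 to 40, 32 to 36 and 34 to 37. The counts with OPP at an unadjusted p under 0.01 moved more. The liver count of 3 was 0 under median scaling, rank invariant scaling and the methods' t-test, 0 without control livers 3 and 4, and 5 with array weights, with 0 to 3 when 1 array was left out. Of all liver probes, 0.264% were higher and 0.124% lower under median scaling, and 1.57% and 0.730% under rank invariant scaling. With quantile normalisation these shares were 2.13% and 0.793%. The spleen count of 0 was 1 without a filter on dim probes, 1 in 1 fit of all 23 arrays and 1 with the replicate block, with 0 to 2 when 1 array was left out. The heart count of 5 was 13 under median scaling (where 11.3% of all probes were lower), 2 in 1 fit of all 23 arrays and 4 with the replicate block, with 3 to 6 when 1 array was left out. The liver and spleen responses differed at 2 probes, at 0 under median scaling and 4 with the replicate block, with 1 to 3 when 1 array was left out. The liver and heart responses differed at 0 probes, and at 1 with the authors' values, without background correction, without a filter or with the replicate block, with 0 to 1 when 1 array was left out. The spleen and heart responses differed at 0 throughout. Signs that turned, where either value was called, were for liver against spleen, Psmd7 (scl34359.7_33-S) at 0.35 with the authors' values, and under median scaling Psme1 (scl0019186.1_187-S) at -0.078, Psme2 at -0.17 and Psmd7 (scl000612.1_15-S) at -0.17. For liver against heart they were Psmb10 (scl34384.4.1_27-S) at -0.32, Psme3 at -0.18 and Psmd13 (scl00071.1_7-S) at -0.63 under median scaling, and Psme2 at 0.071 on the OPP arrays. Turns between values that passed no threshold were not counted, and the causes were not tested. Low signal limits the liver most: probes detected on no array of an organ carry bounds, and those detected on some, such as Psmd14 and Psmd12, have uncertain sizes.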
